A study of Rattus norvegicus with 30 samples.

Results

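The genes described are 8 liver enzymes that break down amino acids or handle methyl groups and sulfur, measured in primary rat hepatocytes exposed to beta-naphthoflavone (BNF). They are Hal, Uroc1 and Ftcd, of histidine breakdown, Bhmt, Mat1a and Gnmt, of the methionine cycle, Gamt, of creatine synthesis, and Cdo1, of cysteine breakdown. They are 8 of 14217 genes with a usable probe set, and each had 1 probe set that carried its symbol alone. They were chosen by name and for strong falls in these same arrays, so their dose differences are given as a description that supports nothing. BNF is a synthetic flavone that activates the aryl hydrocarbon receptor (AhR). This receptor is a ligand-dependent transcription factor that induces Cyp1a1 and other enzymes of foreign-compound metabolism.

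Purchased frozen hepatocytes of male Sprague Dawley rats were plated on collagen under a Matrigel overlay and dosed on day 3 of culture. Wells received vehicle (1% dimethyl sulfoxide, DMSO), 1 µM BNF or 100 µM BNF, and RNA was taken 24 or 48 h later, with 5 arrays in each of the 6 groups and 30 in all. Each array held a separate well per the labels, BNF was also dosed from DMSO solutions, and no label ties a well to an animal, so p-values measure the spread between wells. BNF was 1 of several compounds in a larger project, each studied on its own, and no other compound is used here. Values are linear array signals, and log2 fold changes are differences between the mean log2 signals of groups. Fold differences are thus ratios of geometric means. A gene was called where limma gave a Benjamini-Hochberg adjusted p under 0.05 over all genes.

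Histidine is taken apart in the liver by a short chain of enzymes. Histidase (Hal) removes its amino group to give urocanate, urocanase (Uroc1) hydrates urocanate, and Ftcd passes the resulting formimino group to tetrahydrofolate, which feeds the folate one-carbon pool. The methionine cycle starts with Mat1a, the adult liver form of the enzyme that makes S-adenosylmethionine, the methyl donor of the cell. Gnmt spends that donor on glycine, Gamt spends it on guanidinoacetate to make creatine, and Bhmt rebuilds methionine from homocysteine with a methyl group of betaine. Homocysteine can also leave the cycle toward cysteine, and Cdo1 oxidizes cysteine on the way to taurine and sulfate.

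Promoter sequence from RefSeq was at hand for 6 of the 8 genes (Uroc1, Ftcd, Bhmt, Gnmt, Mat1a and Gamt; rat build GRCr8). The sequences of 4 are printed because Ftcd, Bhmt and Gamt had the lowest signals relative to vehicle at 100 µM and 48 h, and Gnmt held the most AhR letters. Each is the 250 bases before the annotated gene start, 5′ to 3′ on the gene's strand. Capitals mark letters found on either strand by a search for GCGTG, the core of the AhR response element, TATAAA, the TATA box, and GTTAAT, part of the HNF1 site. Ftcd is at chr20:12068220-12068469, minus strand, Bhmt at chr2:26614430-26614679, minus strand, Gnmt at chr9:21752032-21752281, plus strand, and Gamt at chr7:10099034-10099283, plus strand.
Ftcd: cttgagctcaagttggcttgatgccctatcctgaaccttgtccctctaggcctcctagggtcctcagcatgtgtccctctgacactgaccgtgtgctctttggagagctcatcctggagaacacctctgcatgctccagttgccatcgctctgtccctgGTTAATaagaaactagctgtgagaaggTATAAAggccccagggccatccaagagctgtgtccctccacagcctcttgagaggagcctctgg
Bhmt: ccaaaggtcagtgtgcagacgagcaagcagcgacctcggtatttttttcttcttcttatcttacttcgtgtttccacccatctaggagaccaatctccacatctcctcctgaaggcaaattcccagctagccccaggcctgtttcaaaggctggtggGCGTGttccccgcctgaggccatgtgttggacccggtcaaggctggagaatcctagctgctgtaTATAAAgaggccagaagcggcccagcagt
Gnmt: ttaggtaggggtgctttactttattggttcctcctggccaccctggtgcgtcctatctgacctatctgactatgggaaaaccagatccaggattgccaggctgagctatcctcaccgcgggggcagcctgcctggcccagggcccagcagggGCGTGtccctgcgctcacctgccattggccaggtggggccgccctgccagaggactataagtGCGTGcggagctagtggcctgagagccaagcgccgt
Gamt: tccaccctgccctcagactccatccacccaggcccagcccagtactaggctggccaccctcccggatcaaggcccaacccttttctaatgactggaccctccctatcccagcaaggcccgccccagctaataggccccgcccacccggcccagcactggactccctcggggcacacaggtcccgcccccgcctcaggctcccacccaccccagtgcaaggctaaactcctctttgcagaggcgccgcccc

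The search ran over 300 bases per gene, 250 before the start and 50 after it, and the motifs do not overlap each other in these windows. GCGTG was found at 1 place in Bhmt, starting at position -93 from the gene start, and at 3 places in Gnmt, at -98, -36 and 14. It was not found in the windows of Uroc1, Ftcd, Mat1a or Gamt, and 29.7% of all 33469 rat promoters of this length held it. TATAAA began at -29 in Bhmt and at -64 in Ftcd, against 14.2% of all promoters, and GTTAAT began at -91 in Ftcd, against 7.5% of all. The letters of part of an HNF4 site (CAAAGTC, in 4.6% of all promoters), a C/EBP site (TTGCGCAA, 0.2%) and an E-box (CACGTG, 6.4%) were found in none of the 6 windows. The share of G and C was 68% in Gamt, 64% in Gnmt, 55.3% in Bhmt and 55% in Ftcd, against a median of 51.7% over all promoters. A match is a description of letters and not a binding site. Bhmt and Gnmt, which held GCGTG, had log2 fold changes of -2.02 and -0.56 at 100 µM and 48 h. Ftcd, Gamt, Uroc1 and Mat1a, which did not, had -2.83, -1.84, -1.12 and -0.34. Whether the letters bear on these values was not tested.

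The dosing left its mark on Cyp1a1, the textbook AhR target. Its mean signal at 24 h was 11832 ± 3140 in vehicle wells, 44100.4 ± 3275 in 1 µM wells and 59383 ± 8936 in 100 µM wells (SD, n = 5 each). At 48 h it was 9525 ± 4287 in vehicle wells, 22607 ± 5173 in 1 µM wells and 50727 ± 6829 in 100 µM wells. The 1 µM and vehicle wells overlapped at 48 h, with a lowest 1 µM signal of 14997 and a highest vehicle signal of 16365. Cyp1a1 was called there (limma adjusted p = 0.000365), but not with only the groups compared (adjusted p = 0.0529). Markers of the labelled cell type were present, with the 9 measured hepatocyte markers summing to between 296068 and 481861 signal units on every array. No deposited value was at or below 0. In total RNA from whole wells, fewer cells of a type and less RNA per cell cannot be told apart.

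All 8 genes had lower mean signals than vehicle at both doses and both times, but by very different amounts. The median log2 fold change of the 8 24 h after dosing was -0.57 at the lower and -1.22 at the higher dose. After 48 h it was -0.19 at the lower and -1.10 at the higher dose. The medians of all 14217 genes in the same comparisons were 0.028, 0.042, 0.025 and 0.017. Among the 8, limma called 5 lower at 1 µM and 24 h, where 2.4% of all genes were called lower. It called 7 lower at 100 µM and 24 h (10.4% of all genes), 1 lower at 1 µM and 48 h (0.521%) and 7 lower at 100 µM and 48 h (8.62%). None of the 8 was called higher in any of these, and 0 were higher at an unadjusted p under 0.05. Nothing is read from these counts, because the genes were chosen for falls. The 4 comparisons share vehicle arrays within each time.

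**Figure D1:**
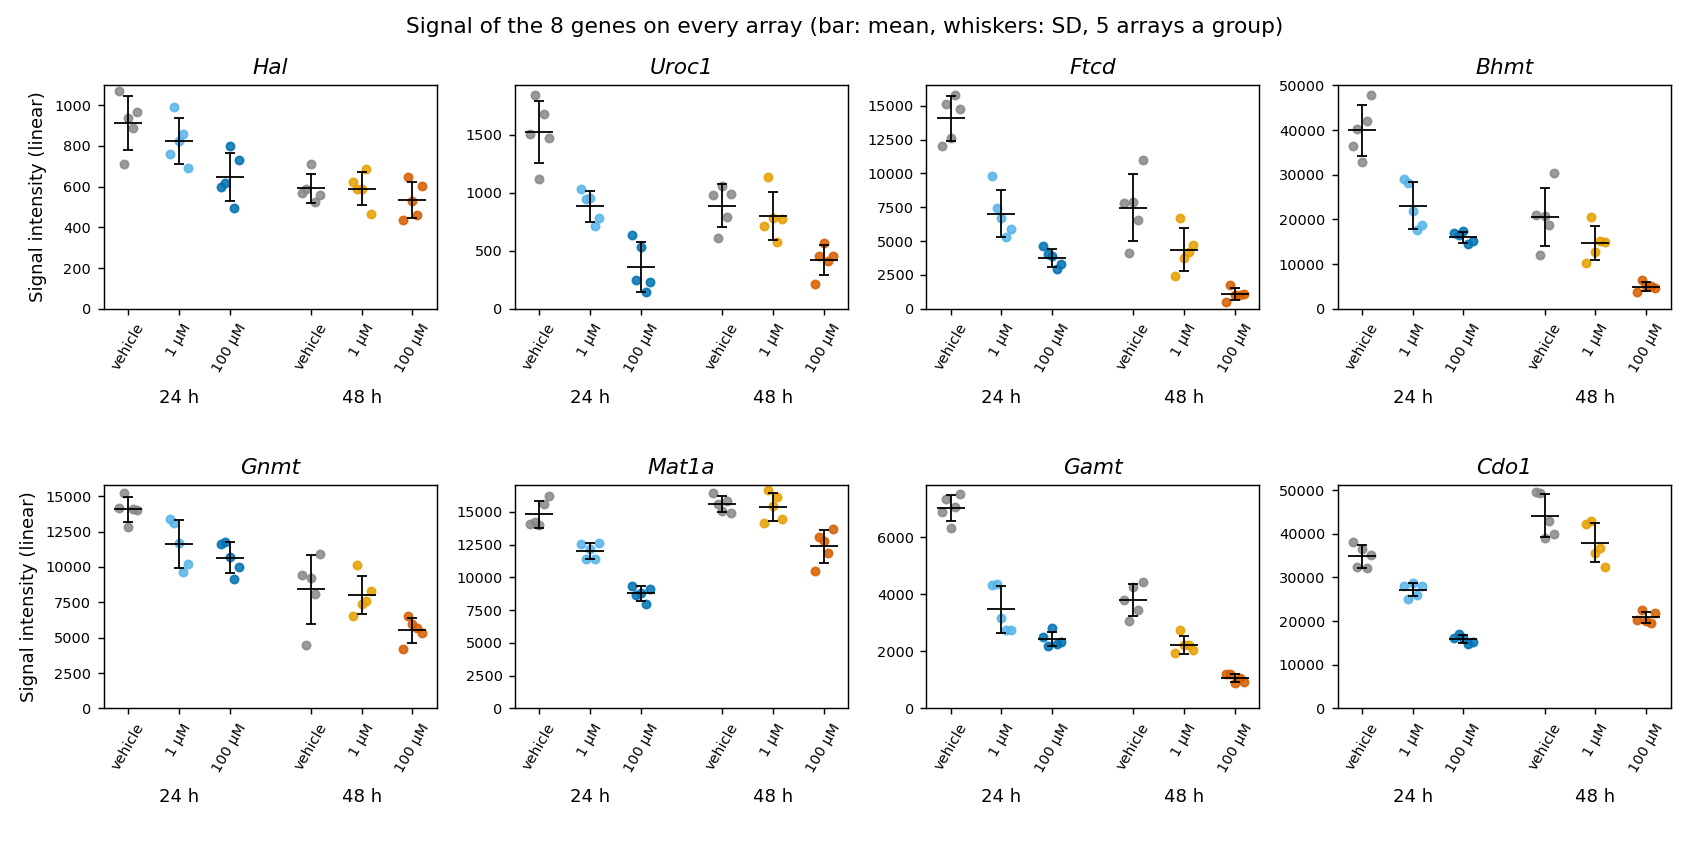
Array signal (linear units, vertical axis from 0) of each of the 8 genes in every well, by dose and time. Points are arrays, bars are group means and whiskers are SD (5 arrays a group), and the 100 µM points of Ftcd, Bhmt and Gamt at 48 h sit lowest in their panels.

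Hal, the histidase that opens histidine breakdown, had among the smallest differences. Hal signals at 24 h were 711 to 1068 (median 936) in vehicle wells, 691 to 992 (median 826) in 1 µM wells and 494 to 797 (median 616) in 100 µM wells. The groups overlapped, and the log2 fold changes were -0.14 ± 0.14 at 1 µM and -0.50 ± 0.14 at 100 µM (± SE throughout). Hal signals at 48 h were 526 to 713 (median 570.2) in vehicle wells, 463 to 686 (median 590.3) in 1 µM wells and 436 to 647 (median 529) in 100 µM wells. All ranges overlapped at 48 h, and the geometric mean at 100 µM was 90% of vehicle.

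Uroc1, the urocanase that acts on the product of Hal, was far lower than vehicle at 100 µM and 24 h. Uroc1 signals at 24 h were 1501, 1843, 1119.5, 1677 and 1472 in vehicle wells, 1031, 948, 951, 709 and 783 in 1 µM wells and 635, 251, 536, 142 and 234 in 100 µM wells. Every 100 µM well lay below every 1 µM well, and every 1 µM well below every vehicle well. The log2 fold change was -0.78 ± 0.29 at 1 µM and -2.28 ± 0.29 at 100 µM, the second being 4.85-fold lower than vehicle. The 100 µM wells were also the most scattered relative to their mean of any group of these genes, with a mean of 359.6 ± 213 and a coefficient of variation of 59.3%.

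Uroc1 signals at 48 h were 983, 607, 1057, 794 and 990.2 in vehicle wells, 716, 1137, 781, 572 and 775 in 1 µM wells and 209, 453, 567, 413 and 457 in 100 µM wells. At 48 h the 1 µM and vehicle wells overlapped, while all 100 µM wells stayed below all vehicle wells. The log2 fold change at 48 h was -0.16 ± 0.29 at 1 µM and -1.12 ± 0.29 at 100 µM. The 100 µM effect at 48 h minus that at 24 h was 1.16 ± 0.41, so the Uroc1 difference from vehicle was smaller at the later time. The small 1 µM value at 48 h lay between -0.30 and -0.053 as each array was left out in turn.

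Ftcd, which hands the formimino group of histidine to folate, had the lowest signal relative to vehicle of the 8 genes at 100 µM and 48 h. Ftcd signals at 24 h were 12019.5, 15147, 12637, 15782 and 14788 in vehicle wells, 9806, 7418, 6686, 5334 and 5863 in 1 µM wells and 4659.7, 4081, 3878, 2907 and 3324 in 100 µM wells. The 3 groups did not overlap at 24 h, and the log2 fold changes were -1.03 ± 0.25 at 1 µM and -1.91 ± 0.25 at 100 µM. Ftcd signals at 48 h were 7796, 4118, 7923, 6525 and 10986 in vehicle wells, 2415, 6740.1, 3725, 4195 and 4709.9 in 1 µM wells and 512, 1735, 984, 1051 and 1107 in 100 µM wells. At 48 h every 100 µM well lay below every other well, and the 1 µM wells overlapped vehicle.

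The mean Ftcd signal at 48 h was 1078 ± 436 in 100 µM wells and 7469.7 ± 2490.3 in vehicle wells (SD, n = 5 each). As a ratio of geometric means, the 100 µM level was 7.09-fold lower than vehicle. The log2 fold change was -2.83 ± 0.25, against -0.79 ± 0.25 at 1 µM. The 100 µM effect at 48 h minus that at 24 h was -0.91 ± 0.36, a larger difference from vehicle at the later time. The same quantity had the opposite sign for Uroc1, and whether the genes differ in it was not tested.

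**Figure D2:**
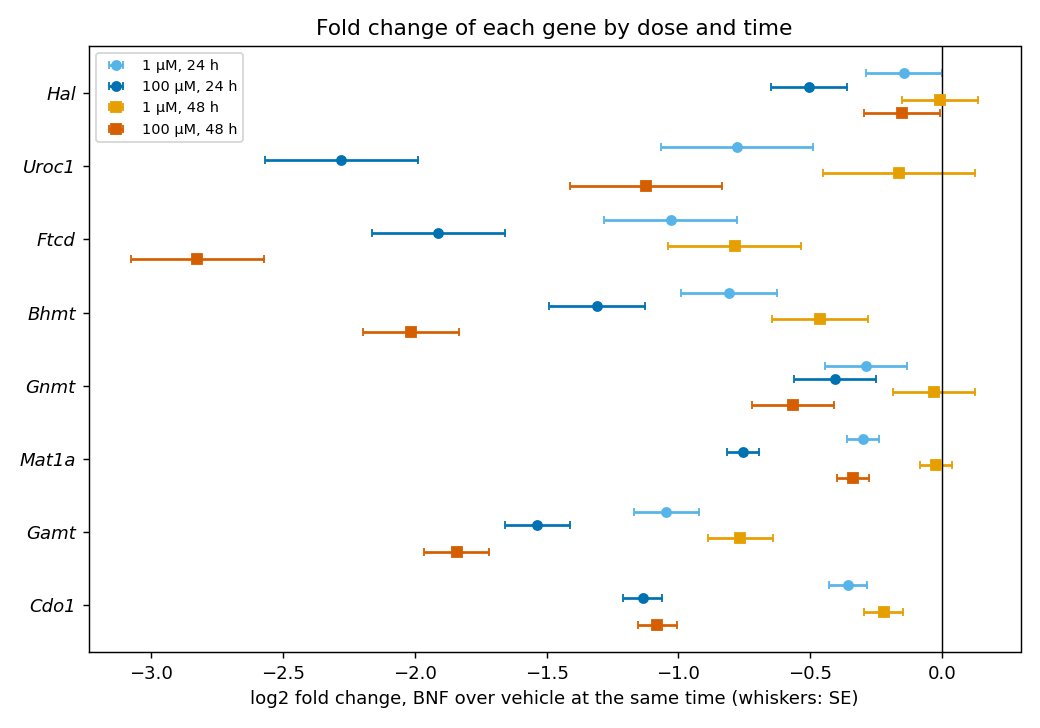
Log2 fold change of each gene, BNF over vehicle at the same time (horizontal axis, whiskers SE), for both doses and both times. Ftcd reaches -2.83 at 100 µM and 48 h and Uroc1 -2.28 at 100 µM and 24 h, while Hal, Gnmt and Mat1a stay between -0.75 and -0.0057.

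Bhmt, betaine-homocysteine methyltransferase, remakes methionine with a betaine methyl group and is one of the most abundant liver enzymes. Bhmt signals at 24 h were 36432, 40311, 32843, 42042 and 47884 in vehicle wells, 29125, 28095, 21792, 17584 and 18774 in 1 µM wells and 16859, 16467, 17305, 14380.3 and 15095 in 100 µM wells. No group overlapped another at 24 h. The log2 fold change was -0.81 ± 0.18 at 1 µM and -1.31 ± 0.18 at 100 µM.

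Bhmt signals at 48 h were 21081, 12099, 20711, 18724 and 30314 in vehicle wells, 10261, 20524, 12792, 15077 and 14844 in 1 µM wells and 3675, 6425, 5054, 5033 and 4619 in 100 µM wells. Every 100 µM well at 48 h was below the lowest well of either other group, and the 1 µM wells overlapped vehicle. The means were 4962 ± 991 in 100 µM wells and 20586 ± 6527 in vehicle wells, a log2 fold change of -2.02 ± 0.18, against -0.46 ± 0.18 at 1 µM. As a ratio of geometric means, the 100 µM signal was 4.04-fold lower than vehicle at 48 h and 2.48-fold lower at 24 h.

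Gnmt, glycine N-methyltransferase, uses up surplus S-adenosylmethionine and is a major methyl consumer in liver. Gnmt signals at 24 h were 12792 to 15253 (median 14092) in vehicle wells, 9609 to 13398 (median 11713) in 1 µM wells and 9174 to 11756 (median 10715) in 100 µM wells. At 24 h the 100 µM wells lay below all vehicle wells, with a log2 fold change of -0.41 ± 0.16, and the 1 µM wells overlapped vehicle (-0.29 ± 0.16). Gnmt signals at 48 h were 4482 to 10942 (median 9215) in vehicle wells, 6551 to 10135 (median 7617) in 1 µM wells and 4167 to 6498 (median 5695) in 100 µM wells. One vehicle well at 48 h, replicate 2, read 4482, and the other 4 read at least 8061. The log2 fold change at 100 µM and 48 h was -0.56 ± 0.16 with that well and -0.78 without it.

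Mat1a, which makes the methyl donor itself, showed small differences measured with little scatter. Mat1a signals at 24 h were 14050.0, 14207, 13981, 15597 and 16205 in vehicle wells, 12543, 11382, 12182, 11392 and 12592 in 1 µM wells and 9354, 8624, 8837, 7949.6 and 9129 in 100 µM wells. The 3 groups were fully separate at 24 h, with log2 fold changes of -0.30 ± 0.061 at 1 µM and -0.75 ± 0.061 at 100 µM. Mat1a signals at 48 h were 16463, 15592, 15104, 15865 and 14914 in vehicle wells, 14178, 16644, 15461, 16129 and 14468 in 1 µM wells and 10506, 13050.4, 12796, 11839.7 and 13728 in 100 µM wells. At 48 h the 1 µM and vehicle wells overlapped and the 100 µM wells stayed below both, with a log2 fold change of -0.34 ± 0.061. The 100 µM effect at 48 h minus that at 24 h was 0.42 ± 0.086. Mat1a was the only 1 of the 8 genes that limma called for this quantity, where 0.788% of all genes were called in either direction. Uroc1 and Ftcd were not called for it. Nothing is read from this call, because the genes were chosen for falls.

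Gamt, guanidinoacetate methyltransferase, which finishes creatine synthesis, was lower than vehicle in every 1 µM and 100 µM well at both times. Gamt signals at 24 h were 6887, 7327, 6328, 7059 and 7507 in vehicle wells, 4319, 4350.4, 3164, 2765 and 2741 in 1 µM wells and 2509, 2193, 2832, 2263 and 2343 in 100 µM wells. The log2 fold change at 24 h was -1.05 ± 0.12 at 1 µM and -1.54 ± 0.12 at 100 µM. Gamt signals at 48 h were 3808, 3051, 4242, 3451 and 4421 in vehicle wells, 1932, 2740.0, 2215, 2220.4 and 2044 in 1 µM wells and 1217, 1197, 901, 1055 and 923 in 100 µM wells. The 3 groups did not overlap at 48 h. At 48 h it was the only one of the 8 genes with no overlap between 1 µM and vehicle wells. The share of all genes without such overlap was not counted.

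The mean Gamt signal at 48 h was 3795 ± 562 in vehicle wells, 2230.3 ± 309.7 in 1 µM wells and 1058 ± 148 in 100 µM wells (SD, n = 5 each). The 1 µM mean was 58.9% of vehicle as a ratio of geometric means, and the 100 µM mean was 27.9%. The log2 fold changes were -0.76 ± 0.12 and -1.84 ± 0.12.

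Cdo1, cysteine dioxygenase, takes cysteine to cysteine sulfinate and its protein level is known to follow cysteine supply. Cdo1 signals at 24 h were 38073, 32359, 36606, 32117 and 35106 in vehicle wells, 27965, 25134, 28810.3, 25973 and 28120.1 in 1 µM wells and 16086, 17148, 16063, 14769.8 and 15198 in 100 µM wells. The groups were separate, with log2 fold changes of -0.36 ± 0.073 at 1 µM and -1.14 ± 0.073 at 100 µM. Cdo1 signals at 48 h were 49493, 49250.4, 39012, 42998 and 40038 in vehicle wells, 42116, 42832, 35634, 36679 and 32328 in 1 µM wells and 20283, 22486, 20033, 19488 and 21842 in 100 µM wells. Every 100 µM well at 48 h read below every other well, and the 1 µM wells overlapped vehicle. The log2 fold change was -1.08 ± 0.073 at 100 µM and 48 h, close in size to that at 24 h.

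The step between the doses was also uneven. At 24 h the log2 fold change of 100 µM over 1 µM was -1.50 ± 0.29 for Uroc1, -0.88 ± 0.25 for Ftcd and -0.78 ± 0.073 for Cdo1. For Gnmt it was -0.12 ± 0.16 and for Hal -0.36 ± 0.14, and in both the 2 doses overlapped. At 48 h the same comparison gave -2.04 ± 0.25 for Ftcd, -1.55 ± 0.18 for Bhmt and -1.08 ± 0.12 for Gamt. Every gene but Hal had all 100 µM wells below all 1 µM wells at 48 h. How many of all genes separate in this way was not counted, so nothing is read from it. These values share the 100 µM arrays with the vehicle comparisons and are likewise a description.

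Time in culture was compared in vehicle wells, which asks how these genes changed between 24 and 48 h without BNF. Of the 8 genes, 5 fell and 1 rose at 48 h against 24 h, where 8.6% of all genes were called lower and 8.64% higher. The vehicle arrays also entered the comparisons for which the genes were chosen, so this test is not independent of the choice. Ftcd read 7469.7 ± 2490.3 in vehicle wells at 48 h and 14074 ± 1648 at 24 h, a log2 fold change of -0.98 ± 0.25 (limma adjusted p = 0.0059). Bhmt fell by 1.00 ± 0.18 on the log2 scale (adjusted p = 0.000136) and Gamt by 0.90 ± 0.12 (adjusted p = 2.73e-06). Gnmt fell by 0.80 ± 0.16 (adjusted p = 0.000339) and Hal by 0.62 ± 0.14 (adjusted p = 0.00212), Hal being the only one of these 5 whose wells overlapped.

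Cdo1 rose between the times in vehicle wells, with 44158 ± 4979.9 at 48 h against 34852 ± 2608 at 24 h (0.34 ± 0.073, limma adjusted p = 0.0011). Every 48 h well was above every 24 h well. Mat1a had a log2 fold change of 0.08 ± 0.061 and was not called (limma adjusted p = 0.474). Uroc1 had -0.79 ± 0.29 with all 48 h wells below all 24 h wells, and was not called (limma adjusted p = 0.0585). It passed in a fit of the vehicle groups alone (adjusted p = 0.00557) and without vehicle 24 h replicate 3 (adjusted p = 0.042).

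In 100 µM wells the same time comparison, given without a test, was -1.89 ± 0.25 for Ftcd, -1.71 ± 0.18 for Bhmt and -1.20 ± 0.12 for Gamt. Mat1a and Cdo1 were higher at 48 h than at 24 h there, at 0.49 ± 0.061 and 0.39 ± 0.073, and all their wells were separate. Uroc1 was at 0.37 ± 0.29 with overlapping wells. In 1 µM wells the values ran between -0.73 for Ftcd and 0.47 for Cdo1. Mat1a and Cdo1 thus read higher at the later time in all 3 treatments, although in vehicle wells Mat1a did not pass the test.

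**Figure D3:**
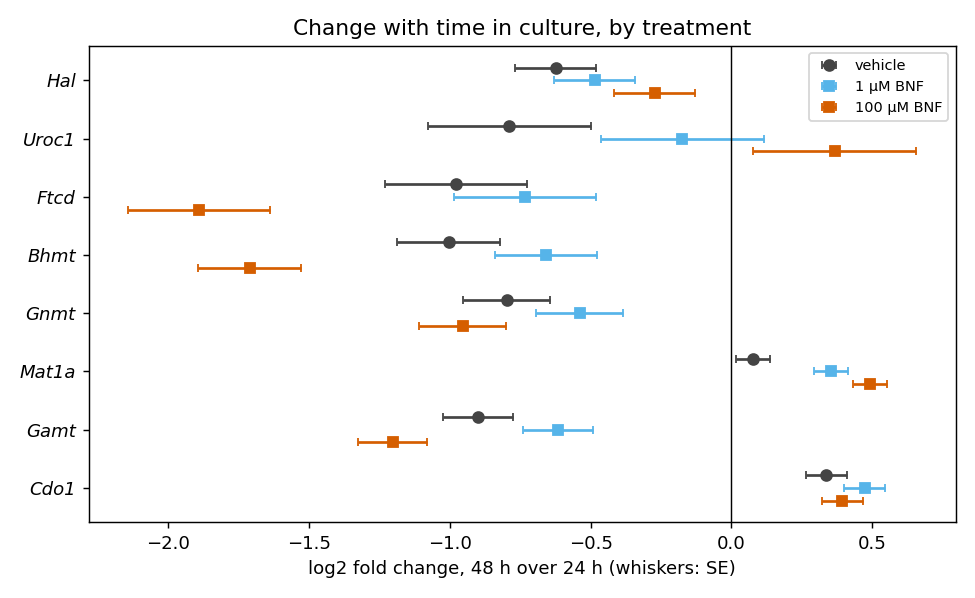
Log2 fold change of each gene, 48 h over 24 h (horizontal axis, whiskers SE), within 1 µM, 100 µM and vehicle wells. Mat1a and Cdo1 lie right of 0 in each treatment, and Ftcd, Bhmt, Gnmt and Gamt lie left of 0, farthest at 100 µM.

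Several wells ranked at 1 end of their group for most of the 8 genes. BNF 100 µM 24 h replicate 4 was the lowest of its group for 7 genes, and BNF 1 µM 48 h replicate 2 the highest for 7. Vehicle 24 h replicate 3 and BNF 1 µM 48 h replicate 1 were each the lowest for 5. How often these wells rank so over all genes was not counted. Values without a well are given here for 2 wells at 48 h. Vehicle 48 h replicate 2 was the lowest of its group for 5 of the 8 genes (Uroc1, Ftcd, Bhmt, Gnmt and Gamt). Without it, the 48 h difference at 100 µM became -3.02 for Ftcd, -2.19 for Bhmt, -1.25 for Uroc1 and -1.92 for Gamt on the log2 scale. BNF 100 µM 48 h replicate 1 was the lowest of its group for 6 genes (Hal, Uroc1, Ftcd, Bhmt, Gnmt and Mat1a), and its Gamt signal was the highest. Without it the differences were -2.58 for Ftcd, -1.91 for Bhmt, -0.89 for Uroc1 and -0.28 for Mat1a, and also -0.465 for Gnmt and -0.083 for Hal. In the vehicle time comparison without vehicle 48 h replicate 2, Ftcd had -0.78 (limma adjusted p = 0.0335) and Gnmt had -0.58 (limma adjusted p = 7e-04).

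**Figure D4:**
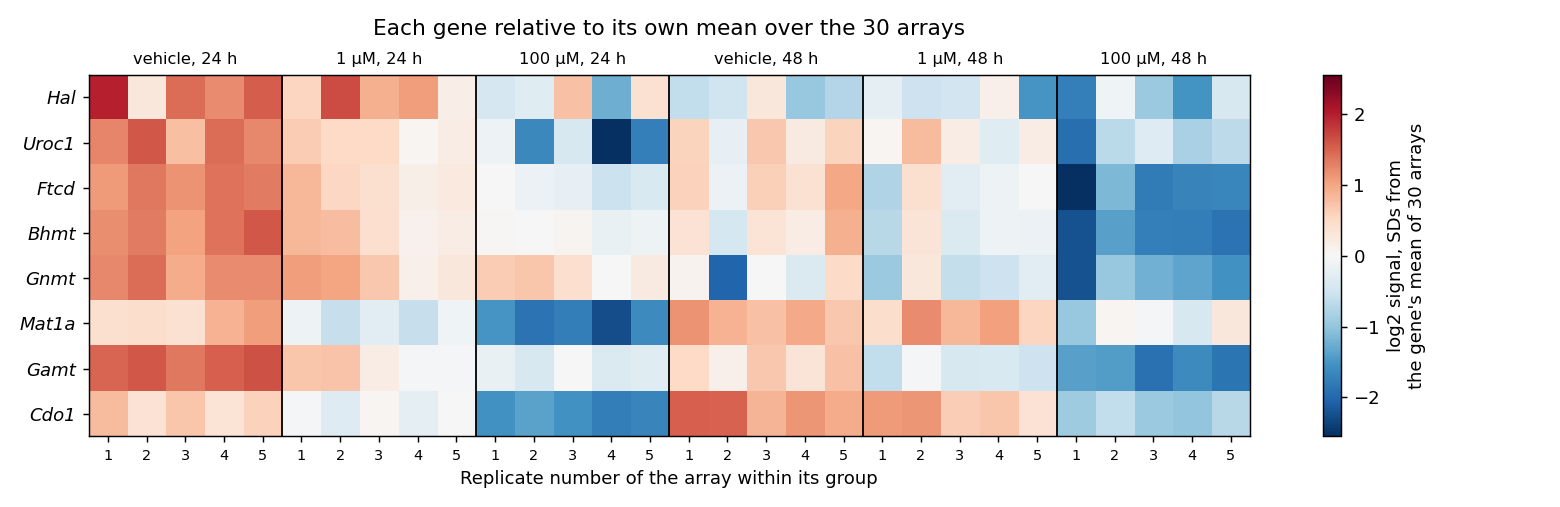
Log2 signal of each gene (rows) on each of the 30 arrays (columns, by treatment and time), in SDs from the gene's own mean over all arrays, red above and blue below. The 24 h vehicle arrays are red for Hal, Uroc1, Ftcd, Bhmt, Gnmt and Gamt, the reddest Cdo1 arrays are vehicle wells at 48 h, and Mat1a is red in both vehicle and 1 µM wells at 48 h.

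The genes followed each other to different degrees over the 30 arrays. As a description, the Pearson correlation of a gene with the mean of the other 7 was 0.933 for Ftcd, 0.8965 for Gamt, 0.8904 for Bhmt and 0.8485 for Uroc1. It was 0.6733 for Gnmt, 0.6055 for Hal, 0.5582 for Cdo1 and 0.4359 for Mat1a. The arrays share dose and time, so these values carry both. Among 7102 other genes with a mean signal above the median gene, those closest to the mean profile of the 8 were Slc25a15 (r = 0.9733), the mitochondrial ornithine carrier, Adk (0.9713), adenosine kinase, Acsm1 (0.9691), a medium-chain acyl-CoA synthetase, Mttp (0.9652), which loads lipid onto lipoproteins, and Fbp1 (0.9646), a gluconeogenic enzyme. Adk removes adenosine, a product of S-adenosylhomocysteine breakdown.

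Other genes of the same pathways, 52 measured of 56 listed, were tested in the same fit. At 100 µM and 24 h, 21 fell and 5 rose, where 10.4% of all genes were called lower and 10.7% higher, and their median log2 fold change was -0.11 against 0.042 for all genes. At 48 h, 15 fell and 7 rose, where 8.62% were called lower and 8.79% higher, with a median of -0.025. At 1 µM, 8 fell and 1 rose at 24 h (2.4% and 1.91% of all genes). Of these falls, that of Aldh1l1 was lost under 13 of 16 alternatives (limma adjusted p up to 0.147). That of Tst was lost under 10 (adjusted p up to 0.162). At 1 µM and 48 h, 1 fell and 0 rose (0.521% and 0.288%), with 4 higher at an unadjusted p under 0.05 in limma. The single call was Ethe1, at -0.25 ± 0.064, adjusted p = 0.0488 in limma, and it was lost under 13 alternatives (adjusted p up to 0.192). At 24 h Ethe1 fell at both doses, and 0 alternatives lost either call. Over the alternatives it ran between -0.398 and -0.287 at 1 µM (limma adjusted p up to 0.0139). At 100 µM it ran between -0.384 and -0.282 (adjusted p up to 0.00145). Its call at 100 µM and 48 h was lost under 5 alternatives.

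Of 22 measured genes in the methionine, choline and methyl-acceptor list, 10 fell and 1 rose at 100 µM and 24 h, where 10.4% of all genes were called lower and 10.7% higher. Bhmt2, which remakes methionine with S-methylmethionine, read 17916 ± 1535 in 100 µM wells and 35907 ± 5441 in vehicle wells at 24 h (-0.99 ± 0.12, adjusted p = 1.91e-07). It read 9518 ± 1279 in 100 µM wells and 25418 ± 3820.0 in vehicle wells at 48 h (-1.42 ± 0.12, adjusted p = 1.53e-10). Bhmt2 is a close relative of Bhmt, and whether their probe sets share target was not tested. Chdh, choline dehydrogenase, which starts the making of betaine, had -0.99 ± 0.078, adjusted p = 4.3e-11 at the earlier and -0.61 ± 0.078, adjusted p = 5.42e-07 at the later time.

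Sardh, which strips the methyl group from sarcosine, the product of Gnmt, had -1.29 ± 0.13, adjusted p = 1.11e-08 at 100 µM and 24 h and -0.79 ± 0.13, adjusted p = 4.78e-05 at 48 h. At 1 µM and 24 h it had -0.69 ± 0.13, adjusted p = 0.002, a call lost with its second brightest probe set (-0.691, adjusted p = 0.125). Chdh and Bhmt2 also fell at 1 µM and 24 h, at -0.52 ± 0.078, adjusted p = 7.73e-05 and -0.56 ± 0.12, adjusted p = 0.00444. Nnmt, which methylates nicotinamide, fell at both times at 100 µM (-0.27 ± 0.067, adjusted p = 0.00358 after 24 h, and -0.45 ± 0.067, adjusted p = 6.43e-06 after 48 h).

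Mat2b, the regulatory subunit that partners the other methionine adenosyltransferase, rose in 100 µM wells, at 0.32 ± 0.04, adjusted p = 3.67e-07 at the earlier and 0.25 ± 0.04, adjusted p = 1.57e-05 at the later time. Mat2a, its catalytic partner outside the adult liver, had 0.07 ± 0.056, adjusted p = 0.432 at the earlier and 0.16 ± 0.056, adjusted p = 0.039 at the later time. The 48 h call of Mat2a was lost under 11 alternatives, with adjusted p up to 0.149. With its second brightest probe set Mat2a passed at 24 h instead (0.446, adjusted p = 0.00289). Ahcy, which splits S-adenosylhomocysteine and is the next step after Gnmt and Gamt, was not called at 100 µM (0.10 ± 0.059, adjusted p = 0.276 at the earlier and 0.03 ± 0.059, adjusted p = 0.831 at the later time). It passed with quantile normalization (adjusted p = 0.015 and 0.0148). Amd1, which draws S-adenosylmethionine into polyamine synthesis, rose at 48 h (0.31 ± 0.081, adjusted p = 0.00615) and had 0.03 ± 0.081, adjusted p = 0.85 at 24 h.

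**Figure D5:**
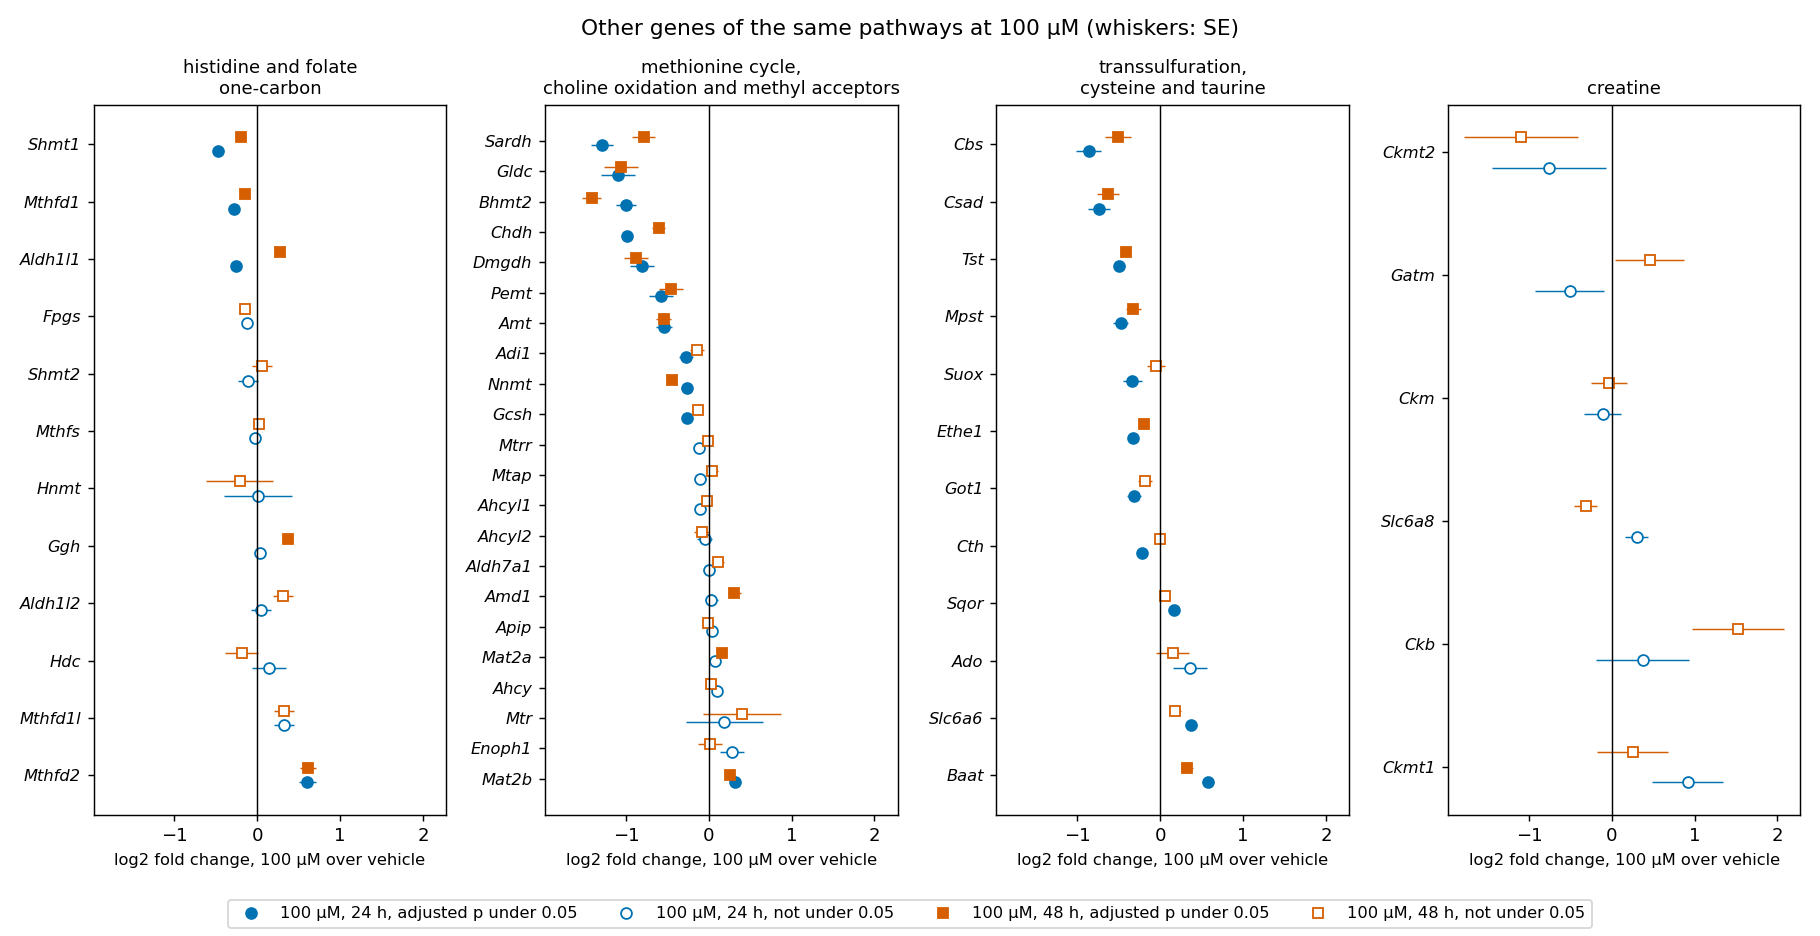
Log2 fold change of 100 µM BNF over vehicle (horizontal axis, whiskers SE) for the other measured genes of each pathway list, at 24 and 48 h. Sardh, Chdh, Bhmt2 and Cbs lie left of 0 at both times, and Mthfd2, Baat and Mat2b lie right of it.

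In the histidine and folate list, 3 of 12 fell and 1 rose at 100 µM and 24 h (10.4% and 10.7% of all genes), and 2 fell and 3 rose at 48 h (8.62% and 8.79%). Mthfd2, a mitochondrial folate enzyme with low levels in resting adult tissue, rose at 24 h (0.61 ± 0.10, adjusted p = 2.05e-05) and at 48 h (0.61 ± 0.10, adjusted p = 2.19e-05). Mthfd1, its cytosolic relative, fell at 24 h (-0.28 ± 0.037, adjusted p = 9.94e-07) and at 48 h (-0.15 ± 0.037, adjusted p = 0.00388), the second call being lost when arrays were centred on their medians (adjusted p = 0.286). Mthfd1 also fell at 1 µM and 24 h (-0.259 to -0.156 over the alternatives, limma adjusted p up to 0.0325). Shmt1, which moves a serine carbon to folate, fell at 100 µM and 24 h (-0.47 ± 0.066, adjusted p = 2.17e-06). Its fall at 100 µM and 48 h (-0.24 to -0.138 over the alternatives) was lost under 6 of them (limma adjusted p up to 0.258). Amdhd1, the step between Uroc1 and Ftcd, was not analysed here.

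Aldh1l1, which oxidizes formyl-folate, went opposite ways at the 2 times. At 100 µM it fell at 24 h (-0.26 ± 0.055, adjusted p = 0.000654) and rose at 48 h (0.27 ± 0.055, adjusted p = 0.000503). The difference between the times was 0.53 ± 0.078, adjusted p = 0.000161 in limma. Ggh, which trims the glutamate tail of folates, rose at 48 h (0.37 ± 0.046, adjusted p = 4.47e-07) and had 0.03 ± 0.046, adjusted p = 0.768 at 24 h, with a difference of 0.34 ± 0.066, adjusted p = 0.00541. These were 2 of the 52 genes called for that difference, where 0.788% of all genes were called in either direction. For the 1 µM effect, 0 of 52 were called in limma, 12 had an unadjusted p under 0.05, and 0.0914% of all genes were called.

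The transsulfuration and taurine list had 8 of 12 genes that fell and 3 that rose at 100 µM and 24 h, with a median of -0.33 against 0.042 for all genes. Of all genes, 10.4% were called lower and 10.7% higher in that comparison. At 48 h, 5 fell and 1 rose (8.62% and 8.79% of all genes). Cbs, which sends homocysteine toward cysteine, had -0.86 ± 0.15, adjusted p = 7e-05 at 24 h. Its 48 h value was -0.51 ± 0.15, adjusted p = 0.0181, and that call was lost when arrays were median centred (adjusted p = 0.0531). It was also lost without 100 µM 48 h replicate 1 (0.0765), vehicle 48 h replicate 4 (0.0681) or vehicle 48 h replicate 5 (0.0757). Cth, the enzyme after Cbs, fell at 24 h (-0.22 ± 0.043, adjusted p = 0.000312) and had 0.0025 ± 0.043, adjusted p = 0.979 at 48 h.

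Csad, which follows Cdo1 on the way to taurine, fell at 24 h (-0.74 ± 0.14, adjusted p = 0.000109) and at 48 h (-0.63 ± 0.14, adjusted p = 0.000924). Its signal at 48 h was 1163 ± 124 in 100 µM wells and 1829 ± 421 in vehicle wells. Baat, which joins bile acids to taurine or glycine, rose at both times (0.58 ± 0.073, adjusted p = 4.74e-07 and 0.32 ± 0.073, adjusted p = 0.00175). Slc6a6, the taurine transporter, rose at 24 h (0.37 ± 0.075, adjusted p = 0.000392), which was lost with its second brightest probe set (0.334, adjusted p = 0.621). Of the sulfide and thiosulfate enzymes, Tst (-0.49) and Mpst (-0.48) fell at 24 h (adjusted p = 8.32e-07 and 9.67e-05), as did Ethe1, given above. Both Tst and Mpst also fell at 100 µM and 48 h. Over the alternatives Tst ran between -0.447 and -0.375 there (limma adjusted p up to 0.00357). Mpst ran between -0.403 and -0.256 (adjusted p up to 0.0451). Sqor, which oxidizes sulfide in mitochondria, rose at 24 h (0.16 ± 0.039, adjusted p = 0.00217), a call lost when arrays were median centred (0.109, adjusted p = 0.372).

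Of 6 measured genes in the creatine list, 0 were called at 100 µM at either time in limma, with 2 at an unadjusted p under 0.05 at 24 h and 2 at 48 h. Gatm, which makes the guanidinoacetate that Gamt methylates, had -0.51 ± 0.41, adjusted p = 0.456 at the earlier and 0.46 ± 0.41, adjusted p = 0.543 at the later time, with overlapping wells. Its second brightest probe set gave the opposite sign at both times, 0.462 at the earlier and -0.781 at the later (adjusted p = 0.508 and 0.23). Slc6a8, the creatine transporter, rose at 1 µM and 24 h (0.61 ± 0.14, adjusted p = 0.0083), a call lost with its second brightest probe set (0.262, adjusted p = 0.363).

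In vehicle wells, 14 of the 52 pathway genes fell and 7 rose at 48 h against 24 h, where 8.6% of all genes were called lower and 8.64% higher. Sardh (-0.92 ± 0.13, adjusted p = 5.68e-06) and Chdh (-0.45 ± 0.078, adjusted p = 8.04e-05) fell with time, as at 100 µM. Mthfd2 (0.57 ± 0.10, adjusted p = 6.18e-05), Baat (0.45 ± 0.073, adjusted p = 3.36e-05) and Mat2b (0.28 ± 0.04, adjusted p = 3.49e-06) rose with time, and each of these 3 also rose at 100 µM. Not every pathway gene went the same way in both comparisons. Nnmt rose with time in vehicle wells (0.264 to 0.343 over the alternatives) and fell at 100 µM at both times. Aldh1l1 fell with time (-0.316 to -0.244 over the alternatives) and at 100 µM and 24 h, but rose at 100 µM and 48 h. The time and dose comparisons share vehicle arrays.

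Markers of cell types were read beside these values. Of 38 measured markers of Kupffer, stellate, endothelial, bile duct and lymphoid cells, 1 fell (Lrat) and 1 rose (Cd14) at 100 µM and 24 h, where 10.4% of all genes were called lower and 10.7% higher. At 48 h 4 fell (Cd14, Lyz2, Stab2 and Epcam) and 0 rose in limma (0 at an unadjusted p under 0.05), where 8.62% of all genes were called lower and 8.79% higher. Summed Kupffer marker signal at 48 h was 14886.9 to 16072 in 100 µM wells and 18005 to 19969 in vehicle wells. Of the 9 hepatocyte markers, 2 fell at 100 µM and 24 h (Hnf4a and Tat) and 4 at 48 h (Serpina1, Fgb, Hnf4a and Tat). Their summed signal at 48 h was 296068 to 358963 (median 355358) in 100 µM wells and 350275 to 428472 (median 399828) in vehicle wells, and at 24 h it was 376296 to 481861 in 100 µM wells and 412218 to 470932 in vehicle wells. Summed bile duct marker signal at 48 h was 9074 to 9786 in 100 µM wells and 11426 to 13108 in vehicle wells, and the sums of stellate, endothelial and lymphoid markers overlapped between these groups. In vehicle wells, 4 of 9 hepatocyte markers fell and 0 rose at 48 h against 24 h, where 8.6% of all genes were called lower and 8.64% higher. Of the 38 markers of other cell types, 5 fell and 2 rose, and 4 of the 5 were among the 10 Kupffer markers. Summed Kupffer marker signal in vehicle wells was 21120 to 25287 at 24 h, above its range at 48 h. The part of these marker shifts in the results above was not tested.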

How the data were processed

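The 30 arrays measured biotin-labelled RNA of rat hepatocytes, 5 per group of dose and time. The authors deposited 1 intensity per probe set on a linear scale, and the submitters' processing notes name MAS5 without a version. Every array had a 2% trimmed mean between 1500.54 and 1500.6, so each had been scaled to a common level, and a shift shared by most genes cannot be seen. How background was corrected is not given in the sources used here. The table held 31099 probe sets, of which 57 controls were left out. Of the rest, 20826 had 1 gene symbol in the platform annotation (20758 matched the RefSeq gene table, GRCr8), 436 several and 9780 none. A gene was its brightest single-symbol probe set by mean log2 signal (14217 genes). No column of other samples was present (0).

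Intensity was taken to log2 with no constant and fitted with limma 3.58.1 in R 4.3.3, with 1 mean per group over 30 arrays, 24 residual degrees of freedom and a mean-variance trend. In each of 11 contrasts the p-values of all genes were adjusted together (Benjamini-Hochberg) and called at 0.05. The fit was tested on simulated data. The number of arrays limits the precision, and within-group SDs of the median gene ran between 0.19 and 0.21 log2 units. No pair of arrays was identical, and the closest differed by 0.377 log2 units on average, against a median of 0.412 within groups. Groups follow the labels, and replicate numbers follow sample order only.

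The 8 genes, the 4 pathway lists and the marker lists were chosen with earlier results of these data known. Pathway genes are named by a rule: in each list and contrast with vehicle, up to 3 genes called in each direction with the smallest adjusted p, plus the enzymes listed as next steps to the 8 genes (Amdhd1, Ahcy, Bhmt2, Mat2a, Gatm, Csad, Cbs and Cth). Alternatives were median centring, quantile normalization, leaving out genes below the median mean signal, the second brightest probe set, only the groups compared, no trend, and each array left out in turn.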

Additional observations from a re-analysis of the deposited data

Results flagged for a closer look

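The effect of 100 µM BNF differed between 48 and 24 h in the limma fit for a pair of folate genes. For Aldh1l1 the log2 effect at 48 h minus that at 24 h was 0.529 ± 0.078 (SE, adjusted p = 0.000161), and over 26 alternatives it ran between 0.498 and 0.615, with adjusted p up to 0.00673. For Ggh it was 0.341 ± 0.066 (adjusted p = 0.00541), and over the alternatives it ran between 0.302 and 0.426, with adjusted p up to 0.0257. Among the 8 chosen genes, 48 groups of 5 arrays were searched for a sample far from the others by Dixon's criterion, and 0 were found.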

How the results depend on the processing

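No paired analysis was possible because the labels give no replicate numbers that tie wells of different groups together. Of 1168 dose differences of the 8 genes, and changes of these between times, over all alternatives, 1159 kept their sign. The 9 that did not belonged to Hal, Gnmt and Mat1a at 1 µM and 48 h. Part of the 1168 could not change, as each gene had 1 probe set. Leaving out low genes, other groups or the trend also leaves a difference of group means as it is. Nothing is read from this count, because the genes were chosen for falls. In vehicle wells, Hal, Ftcd, Bhmt, Gnmt, Gamt and Cdo1 stayed past the threshold in every alternative in which they were measured (highest limma adjusted p 0.0335, for Ftcd). The 1 call that differed was that of Uroc1. The vehicle arrays also entered the choice of these genes, and the alternatives reuse them, so they do not make this test independent of the choice. Leaving out genes below the median signal dropped Hal and Uroc1 and moved the median of the members at 100 µM and 48 h to -1.46, against -1.10 for all 8.

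Of 4256 single-gene values, 4151 were counted as unchanged, 73 lost a call, 30 gained one, 1 changed size and 1 called value reversed. Values counted as unchanged did not all keep their sign. They include the sign changes given above for Hal, Gnmt and Mat1a at 1 µM and 48 h. They also include those of Gatm at 100 µM with its second brightest probe set, where neither value was called. The reversed one was Slc6a8 in vehicle wells, 0.63 at 48 h over 24 h (adjusted p = 0.00141) and -0.052 with its second brightest probe set (adjusted p = 0.884). The pathway gene that fell at 1 µM and 48 h, 1 in number, became 0 with median centring, quantile normalization, the second brightest probe set, only the groups compared or no trend, and 0 to 1 with an array left out. The pathway gene that rose at 1 µM and 24 h, also 1, became 2 with quantile normalization, 3 without low genes, 0 with the second brightest probe set, and 1 to 2 with an array left out.

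Over all genes, calls at 1 µM and 24 h numbered 612, and 396 with median centring (406 to 689 with an array left out, the lowest without 1 µM replicate 3). At 1 µM and 48 h they numbered 115, with 66 after median centring, 30 with only the groups compared and 46 to 153 with an array left out. For the change of the 100 µM effect between times they numbered 112, with 47 after median centring and 174 without low genes. For the 1 µM effect they numbered 13, with 0 after median centring, 23 after quantile normalization, 1 with the second brightest probe set, 5 with only the groups compared, 4 without a trend and 2 to 22 with an array left out. Median centring also moved the balance of calls. It gave 51 higher and 345 lower at 1 µM and 24 h (271 and 341 before), 655 and 1486 at 100 µM and 24 h (1523 and 1477 before) and 8 and 58 at 1 µM and 48 h (41 and 74 before). For the change of the 100 µM effect it gave 29 and 18 (54 and 58 before), and in vehicle wells over time 715 and 922 (1228 and 1222 before). It left no median of all genes over 0.1 from 0. The causes of these changes were not tested.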
